A study of Saccharomyces cerevisiae with 16 samples.

Results

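The mRNAs described here encode 10 proteins of the budding yeast machinery that removes the 5′ cap of an mRNA and digests the uncapped body: DCP1 (YOL149W), DCP2 (YNL118C), DHH1 (YDL160C), PAT1 (YCR077C), EDC1 (YGL222C), EDC2 (YER035W), EDC3 (YEL015W), LSM1 (YJL124C), SCD6 (YPR129W) and XRN1 (YGL173C). They were taken by name from the 5899 protein-coding genes and 11997 features other than spike-ins in a strand-specific total RNA-seq table of Saccharomyces cerevisiae. Every strain was MATa his3Δ1 leu2Δ0 met15Δ0 ura3Δ0, so the wild type carried these auxotrophic alleles too. There were 16 libraries in 8 groups of 2, which the design text calls biological replicates: xrn1Δ::kanMX4 cells starved of glucose and xrn1Δ::kanMX4 cells in glucose, upf1Δ::kanMX4 cells starved and in glucose, wild type starved with cycloheximide (100 µg/ml), wild type in glucose with cycloheximide, wild type starved with DMSO and wild type in glucose with DMSO. Starved cells had spent 16 min in medium with glycerol and ethanol in place of glucose, and the others the same time in glucose medium. DMSO is stated for the wild type alone, and no vehicle is stated for the deletion strains. Each deletion is a single named strain, and Upf1 is the RNA helicase of nonsense-mediated decay.

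In the main route of mRNA decay in yeast, the poly(A) tail is shortened, the Pat1 and Lsm1-containing complex binds the shortened 3′ end, and the enzyme Dcp2 with its partner Dcp1 cleaves the cap. Xrn1 then degrades the uncapped RNA from its 5′ end. Dhh1, Pat1, Scd6 and the Edc proteins stimulate decapping or repress translation, and several of these proteins gather in P bodies when glucose is removed. Cycloheximide stalls translating ribosomes and is known to stabilise many mRNAs.

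All values are normalized reads per nucleotide of the feature, so levels of different genes can be set side by side, though only roughly. The counted feature, as recovered from the values, equalled the 438-base reading frame for EDC2. It was longer than the frame by 441 bases for LSM1 and 888 for DHH1. A fixed amount of spike-in RNA was added per 1 µg of total RNA, and the spike-ins summed to 305 to 317 in every library, so a level is relative to total RNA. Fewer cells with an mRNA and less of it per cell cannot be told apart in bulk RNA. Read units recovered from the steps between values summed to 6492840 to 34335134 a library, lowest in starved wild type with cycloheximide. The members rested on 211 units (EDC1 in upf1 in glucose, replicate 1) to 37433 units (DHH1 in starved xrn1, replicate 1). UPF1 averaged 0.00933 reads per nucleotide in starved upf1 at its lowest, against 0.599 in wild type in glucose. The MATa genes MFA1, MFA2, STE2, STE6 and BAR1 had group means of at least 0.279, whereas the alpha-cell genes MF(ALPHA)1, MF(ALPHA)2 and STE3 had group means of at most 0.219. The replicates of upf1 in glucose stood furthest apart, with a chi-square of 13.5 per degree of freedom over recovered units, against 1.62 for wild type in glucose. The column headers carry one code for the 4 cycloheximide libraries and another for the other 12, so the drug and whatever that code marks cannot be told apart.

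The EDC1 mRNA is known to be decapped without prior loss of its poly(A) tail and has a poly(U) tract in its 3′ untranslated region, so the downstream sequence of EDC1 is shown beside that of its paralog EDC2. In the R64 genome the longest T run in the 200 bases after the stop codon was 31 bases in EDC1, at bases 26 to 56. In EDC2 it was 11 bases, at bases 52 to 62. Only 3 of 6020 genes (0.0498%) had a run as long as that of EDC1, and 6.1% had one as long as that of EDC2. In the other members the longest run was 3 to 9 bases. Capitals mark the run, which goes on past the 30 bases shown for EDC1 (chrVII:80610-80639, minus strand, and chrV:223122-223151, plus strand; bases from RefSeq).
EDC1: ttttgaTTTTTTTTTTTTTTTTTTTTTTTT
EDC2: ctctcaTTTTTTTTTTTggggttttattta

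Upstream sequence is shown for EDC2, the member with the largest increase in starved wild type, and for LSM1, a member that fell there. The stress response element, CCCCT or its reverse complement AGGGG, is the site of the stress factors Msn2 and Msn4. It was searched on both strands from 350 to 51 bases before each start codon. EDC2 held 2 copies, at 300 and 194 bases before its start codon, and LSM1, PAT1 and DCP2 held 1 each, at 185, 210 and 340 bases. No copy was found in this window of the other 6 members, EDC1 included. Of 6020 such windows, 22.9% held at least 1 copy and 3.82% held 2 or more, so a single copy is common. The element AGGGAT of the Gis1 and Rph1 factors, which overlaps it in the letters AGGG, occurred in 9.4% of windows and in none of the members. Capitals mark the element in the 300 bases of EDC2 (chrV:222289-222588, plus strand) and LSM1 (chrX:187695-187994, minus strand).
EDC2: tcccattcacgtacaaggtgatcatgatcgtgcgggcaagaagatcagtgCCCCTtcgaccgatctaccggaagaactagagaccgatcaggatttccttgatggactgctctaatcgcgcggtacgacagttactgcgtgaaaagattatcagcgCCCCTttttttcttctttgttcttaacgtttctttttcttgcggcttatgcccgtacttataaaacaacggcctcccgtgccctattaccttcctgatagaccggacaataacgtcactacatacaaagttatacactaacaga
LSM1: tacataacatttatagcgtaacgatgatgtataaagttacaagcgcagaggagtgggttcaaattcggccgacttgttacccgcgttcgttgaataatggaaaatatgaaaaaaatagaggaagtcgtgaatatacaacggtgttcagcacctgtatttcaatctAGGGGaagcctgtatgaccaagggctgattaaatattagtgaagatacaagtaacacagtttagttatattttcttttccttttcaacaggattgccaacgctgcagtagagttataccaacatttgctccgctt

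In wild type in glucose the 10 mRNAs had different levels per nucleotide. XRN1 was highest at 1.16 reads per nucleotide, followed by DHH1 at 0.941, EDC2 at 0.761, LSM1 at 0.742 and PAT1 at 0.665. SCD6 averaged 0.448, DCP1 0.417, DCP2 0.349, EDC3 0.281 and EDC1 0.156. Within this order the libraries of EDC2 and LSM1 overlapped, as did those of SCD6 and DCP1, and every other neighbouring pair stood apart. In xrn1 in glucose the order was led by DHH1 at 7.45, EDC2 at 5.62 and EDC1 at 2.94, so EDC1 stood next to PAT1 (2.93) and LSM1 (2.87) and overlapped PAT1. For each member other than XRN1, one of the 2 upf1 groups had the lowest mean and a group with xrn1 or cycloheximide the highest. For LSM1 the lowest groups, starved upf1 at 0.442 and starved wild type at 0.445, overlapped, and so did those of EDC2, upf1 in glucose at 0.731 and wild type in glucose at 0.761.

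**Figure D1:**
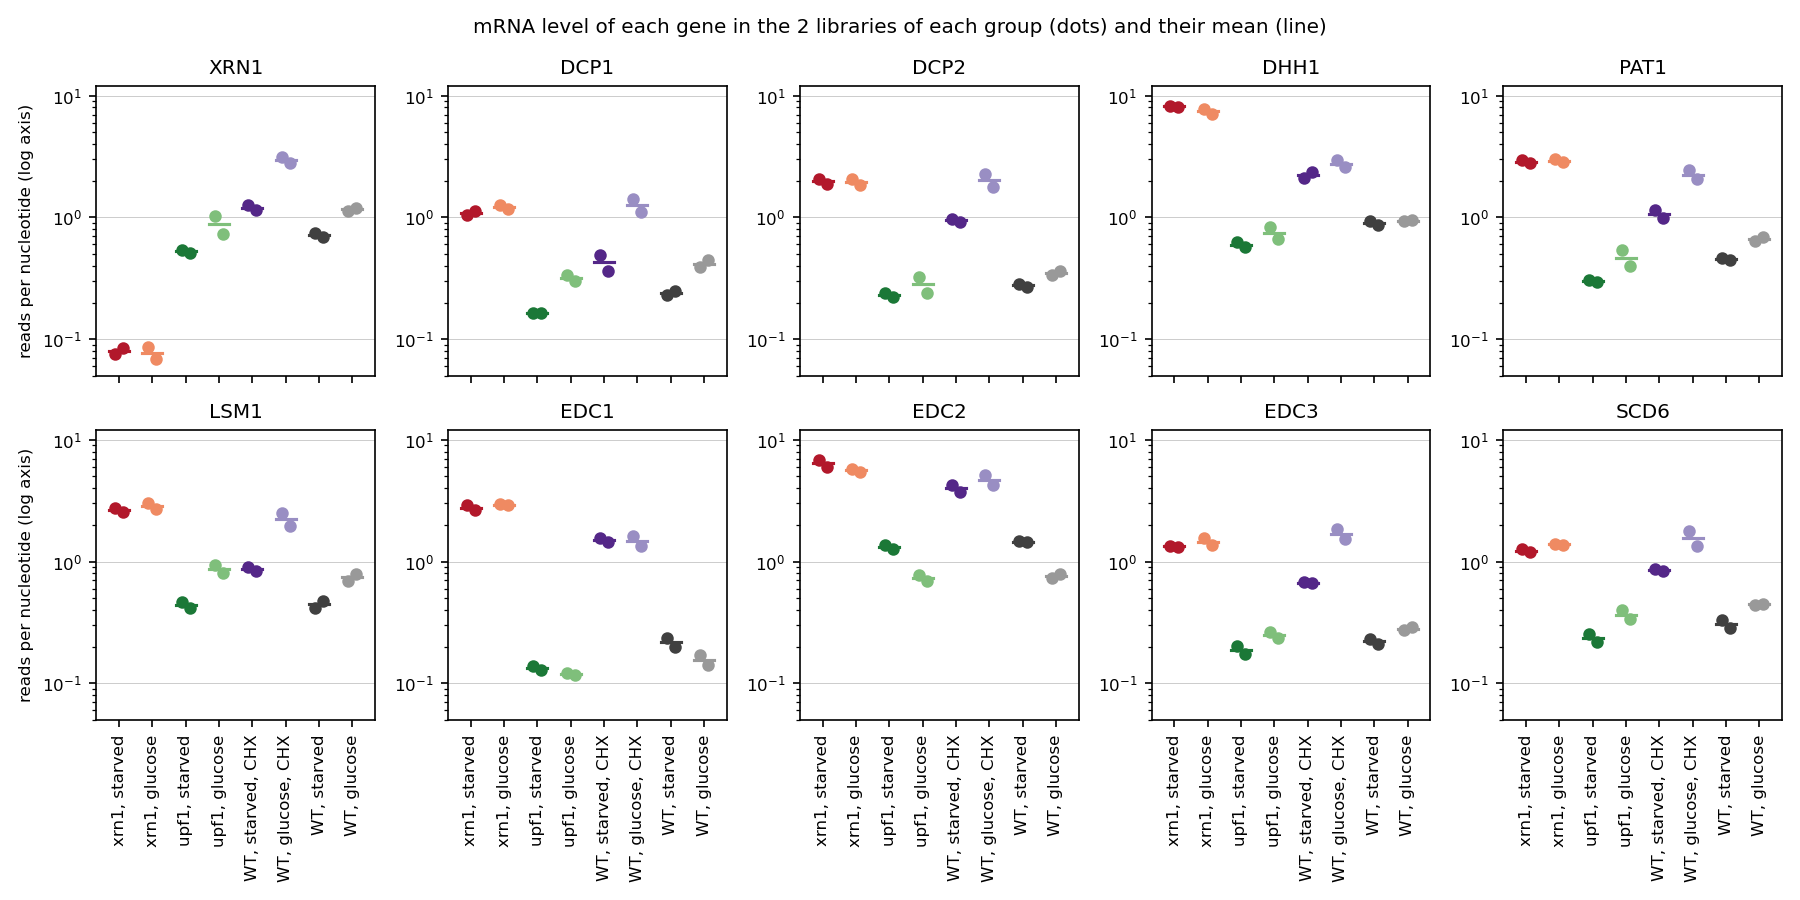
Reads per nucleotide (log axis) of each mRNA in the 2 libraries of the 8 groups, with a line at the mean. The xrn1 and cycloheximide groups lie above wild type without cycloheximide in glucose for DCP2, DHH1, PAT1, LSM1, EDC1, EDC2, EDC3 and SCD6, and XRN1 lies near 0.08 in both xrn1 groups.

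XRN1 encodes the cytoplasmic exonuclease that digests RNA from the 5′ end, and its mRNA is the check on the deletion. XRN1 stood at 0.0753 and 0.0843 reads per nucleotide in starved xrn1, 0.0858 and 0.0693 in xrn1 in glucose, 0.545 and 0.513 in starved upf1, 1.02 and 0.738 in upf1 in glucose, 1.26 and 1.15 in starved wild type with cycloheximide, 3.13 and 2.82 in wild type with cycloheximide in glucose, 0.739 and 0.692 in starved wild type and 1.14 and 1.19 in wild type in glucose. Both xrn1 groups lay below every other library, and the 2 xrn1 groups overlapped each other. The residual signal was 0.0692 of the wild-type level in glucose on the log2(value + 0.00364) scale, over a counted feature of 5209 bases that reaches 622 bases beyond the 4587-base reading frame. Comparisons with xrn1 therefore count the other 9 members. Among groups with the gene intact, starved upf1 was lowest and wild type with cycloheximide in glucose was highest.

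Deletion of XRN1 in glucose was accompanied by higher levels of all the other decapping mRNAs. With limma over 11605 features, all 9 rose at an adjusted p under 0.05, against 97.6% of protein-coding genes that rose and 0.241% that fell, a share near that of the members. The median protein-coding gene rose by 2.06 on the log2 scale, and the members ranged from 1.54 to 4.21. When each library was put on the level of its protein-coding genes, which moved the all-feature median change by -1.88, 5 members were higher and 2 lower, against 38.5% and 36.3% of protein-coding genes.

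Edc1 is a small activator of Dcp2, and its mRNA showed the largest rise. EDC1 stood at 2.89 and 2.64 reads per nucleotide in starved xrn1, 2.95 and 2.93 in xrn1 in glucose, 0.140 and 0.128 in starved upf1, 0.121 and 0.117 in upf1 in glucose, 1.57 and 1.45 in starved wild type with cycloheximide, 1.63 and 1.35 in wild type with cycloheximide in glucose, 0.236 and 0.200 in starved wild type and 0.170 and 0.142 in wild type in glucose. The xrn1 libraries were the highest, the cycloheximide libraries came next, and none of these 8 overlapped the other 8. EDC1 was 18.5-fold higher in xrn1 in glucose than in wild type (log2 change 4.21 ± 0.12, adjusted p 2.75e-11), a larger change than in 99.3% of protein-coding genes, and it remained higher by 2.16 after scaling to protein-coding genes. In starvation the change in xrn1 was 3.64 ± 0.12, which exceeded that of 95.6% of genes.

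Dhh1, a DEAD-box helicase that represses translation and activates decapping, had the next largest rise. DHH1 stood at 8.21 and 8.09 reads per nucleotide in starved xrn1, 7.78 and 7.13 in xrn1 in glucose, 0.626 and 0.566 in starved upf1, 0.833 and 0.659 in upf1 in glucose, 2.11 and 2.35 in starved wild type with cycloheximide, 2.96 and 2.58 in wild type with cycloheximide in glucose, 0.935 and 0.874 in starved wild type and 0.934 and 0.947 in wild type in glucose. Here the 4 xrn1 libraries stood alone at the top, and the cycloheximide libraries lay well below them. The rise in xrn1 in glucose was 2.98 ± 0.11 (7.89-fold, adjusted p 9.07e-11), above 89.0% of protein-coding genes, and 0.92 after scaling to them. Cycloheximide in glucose raised DHH1 by 1.55 ± 0.11, above only 22.7% of genes, and scaled to protein-coding genes its change there was -0.48. Both changes were taken against the same wild-type libraries, so they are not independent of each other.

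The decapping enzyme itself rose unevenly. DCP2, the catalytic subunit, stood at 2.06 and 1.83 in xrn1 in glucose and 2.26 and 1.79 in wild type with cycloheximide, against 0.335 and 0.363 reads per nucleotide in wild type in glucose. Its log2 changes were 2.47 ± 0.14 and 2.51 ± 0.14. DCP1, the activating subunit, stood at 1.26 and 1.18 in xrn1 in glucose and 1.42 and 1.10 with cycloheximide, against 0.389 and 0.446 in wild type in glucose. Its log2 changes were 1.54 ± 0.15 and 1.58 ± 0.15, below the protein-coding medians of 2.06 and 2.05. No library of wild type in glucose overlapped the xrn1 or cycloheximide libraries for either subunit. On the scale of protein-coding genes DCP2 stayed higher by 0.41 in xrn1 and 0.49 with cycloheximide, whereas DCP1 was lower, with changes of -0.52 and -0.44.

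Of the remaining activators, EDC2 and EDC3 rose more than the median gene in xrn1 and PAT1, LSM1 and SCD6 lay nearer to it or below it. EDC2, paralog of EDC1, changed by 2.88 ± 0.11 in xrn1 in glucose, and EDC3, the scaffold that joins Dcp2 and Dhh1, by 2.36 ± 0.12. PAT1, the scaffold of the Lsm1-7 complex, changed by 2.13 ± 0.13, and LSM1, the subunit that marks the cytoplasmic ring, by 1.95 ± 0.13. SCD6, an Lsm-domain repressor of translation, changed by 1.62 ± 0.14. After scaling to protein-coding genes EDC2 (0.82) and EDC3 (0.30) stayed higher and SCD6 was lower (-0.44), while PAT1 (0.07) and LSM1 (-0.12) no longer passed the test.

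**Figure D2:**
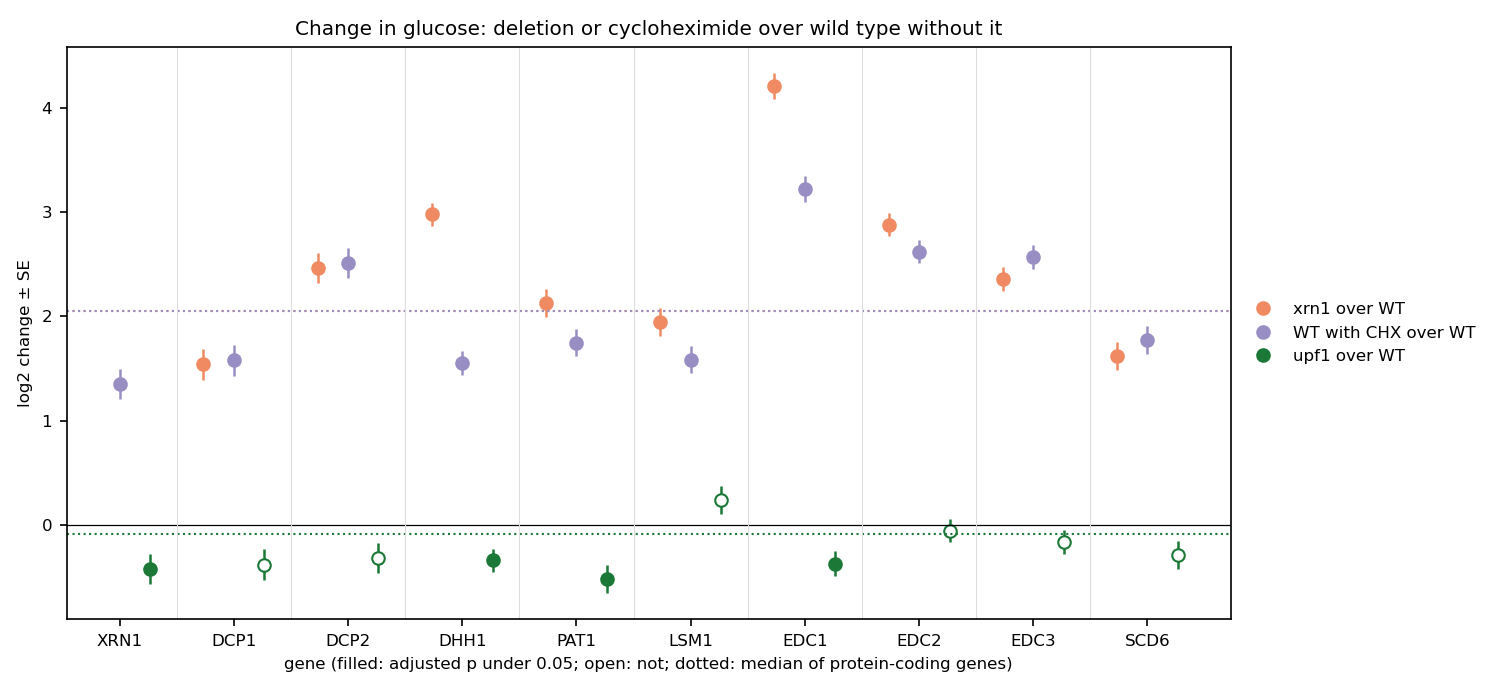
The log2 change (± SE) of each mRNA in glucose in xrn1, in wild type with cycloheximide and in upf1, each over wild type in glucose with DMSO (2 libraries per group), with dotted lines at the median of protein-coding genes. EDC1 is highest in xrn1 at 4.21 and with cycloheximide at 3.22, and the upf1 changes lie between -0.52 and 0.24; XRN1 is not drawn for the strain that lacks it.

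Cycloheximide in glucose raised all 10 mRNAs, against 98.8% of protein-coding genes that rose and 0.0516% that fell. EDC1 rose most, by 3.22 ± 0.12 (9.35-fold, adjusted p 3.71e-10), more than 97.1% of genes. EDC2 rose by 2.62 ± 0.11, EDC3 by 2.57 ± 0.12 and DCP2 by 2.51 ± 0.14, all above the median of 2.05. XRN1 rose least, by 1.35 ± 0.14, which exceeded 15.2% of genes. PAT1 (1.75), LSM1 (1.58), SCD6 (1.77), DHH1 and DCP1 lay between XRN1 and the median. Scaling to the protein-coding genes moved the all-feature median by -1.84 and divided the members into 4 higher (EDC1 1.21, EDC2 0.59, EDC3 0.55, DCP2 0.49) and 6 lower, of which XRN1 (-0.68) was the lowest, against 38% and 33.6% of protein-coding genes.

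In starved cells cycloheximide again raised all 10, against 80.3% of protein-coding genes that rose and 10.2% that fell. The changes ran from 0.75 for XRN1 and 0.81 for DCP1 to 2.77 for EDC1, around a protein-coding median of 1.31. Relative to protein-coding genes, 5 members were higher (EDC1 by 1.53, DCP2 by 0.52, EDC3 by 0.35, SCD6 by 0.23, EDC2 by 0.20), DCP1, LSM1 and XRN1 were lower, and PAT1 (-0.04) and DHH1 (0.05) did not pass, against 42.7% and 35.7% of genes. The all-feature median moved by -1.05 under that scaling. EDC1 and XRN1 were thus at the ends of the list in both media.

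Starvation divided the members in wild type. EDC2 and EDC1 rose, DCP1, LSM1, XRN1, SCD6, PAT1 and EDC3 fell, and DCP2 and DHH1 did not pass the test. That gave 2 higher, against 10.7% of protein-coding genes, and 6 lower, against 53%. The median protein-coding gene changed by -0.42. Scaling to the protein-coding genes moved the all-feature median by 0.28, and 3 members were then higher (DHH1 included, at 0.30) and 4 lower, against 28.3% and 38% of genes.

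EDC2 showed the largest increase. EDC2 stood at 6.81 and 6.03 reads per nucleotide in starved xrn1, 5.80 and 5.44 in xrn1 in glucose, 1.38 and 1.27 in starved upf1, 0.774 and 0.689 in upf1 in glucose, 4.26 and 3.74 in starved wild type with cycloheximide, 5.18 and 4.25 in wild type with cycloheximide in glucose, 1.47 and 1.44 in starved wild type and 0.730 and 0.793 in wild type in glucose. Both starved wild-type libraries lay above both in glucose. The change was 0.93 ± 0.11 (1.91-fold, adjusted p 2.02e-05), above 94.8% of genes, and it was 1.30 scaled to protein-coding genes and 1.33 scaled to snoRNAs. EDC1 rose by 0.48 ± 0.12 (adjusted p 0.00673), and its starved and glucose libraries did not overlap. The EDC1 call rested on single libraries: its change was 0.35 without wild type in glucose replicate 2 and 0.36 without starved wild type replicate 1, and in both it missed the threshold.

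DCP1, of the decapping enzyme, XRN1 and LSM1 had the largest decreases. DCP1 stood at 0.230 and 0.250 reads per nucleotide in starved wild type, against 0.389 and 0.446 in glucose, a change of -0.79 ± 0.15 (adjusted p 8.00e-04). XRN1 stood at 0.739 and 0.692 in starved wild type, against 1.14 and 1.19 in glucose, a change of -0.70 ± 0.14 (adjusted p 0.00160). LSM1 stood at 0.419 and 0.471 in starved wild type, against 0.693 and 0.791 in glucose, a change of -0.73 ± 0.13. In none of these 3 did the starved and glucose libraries overlap, and each fell further than the median gene.

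PAT1 changed by -0.53 ± 0.13 and SCD6 by -0.54 ± 0.14, close to the median gene. EDC3 changed by -0.34 ± 0.12 (adjusted p 0.0302), but the sign turned on the scale of protein-coding genes (0.02) and on that of snoRNAs (0.05), and the call was lost without any 1 of the 4 libraries (-0.28 to -0.40). SCD6 lost its call without starved wild type replicate 2 (-0.43). DCP2 stood at 0.283 and 0.271 in starved wild type, against 0.335 and 0.363 in glucose, and its change of -0.33 ± 0.14 did not pass (adjusted p 0.0786). DHH1 differed by -0.06 ± 0.11 (95% interval -0.30 to 0.19), and its libraries overlapped. Scaled to snoRNAs, none of the 6 that fell passed the test, while EDC1 and EDC2 did. On that scale 450 of 5817 protein-coding genes were lower and 684 higher, around a median of -0.03.

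In xrn1 the starvation change was not detected for any member. With limma, 0 of the 9 intact members passed at an adjusted p under 0.05, against 4.01% of protein-coding genes that rose and 0.086% that fell. At an unadjusted p under 0.05 it was also 0 of 9, against 1412 of all 11605 features. The estimates ran from -0.17 for SCD6 to 0.19 for EDC2, and the 95% intervals of these 9 all lay between -0.48 and 0.43. EDC2 stood at 6.81 and 6.03 in starved xrn1, against 5.80 and 5.44 in xrn1 in glucose, and DCP1 at 1.04 and 1.13 in starved xrn1, against 1.26 and 1.18 in xrn1 in glucose.

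The test of the difference between the starvation change in xrn1 and that in wild type called 4 members. It was -0.74 ± 0.16 for EDC2 (adjusted p 0.00421) and -0.57 ± 0.17 for EDC1. EDC2 changed by 0.93 in wild type and 0.19 in xrn1, and EDC1 by 0.48 and -0.09. The difference was 0.63 ± 0.19 for LSM1 and 0.62 ± 0.21 for DCP1, whose starvation changes were less negative in xrn1. This made 2 of 9 higher, against 35.5% of protein-coding genes, and 2 of 9 lower, against 4.06%, around a median of 0.40. Relative to protein-coding genes, EDC2 (-1.11) and EDC1 (-0.94) were lower and no member was higher, against 18.2% and 23.4% of genes. Scaled to snoRNAs EDC2 alone passed (-1.30), against 163 of 5817 protein-coding genes that were lower and 14 that were higher. DCP1 lost the call without any 1 of the 8 libraries (0.53 to 0.72). EDC1 lost it without 6 of them (-0.44 to -0.64), all but wild type in glucose replicate 1 and starved wild type replicate 2. LSM1 lost it without 5 (0.53 to 0.68), which were wild type in glucose replicate 2, starved wild type replicate 1, xrn1 in glucose replicate 2 and both starved xrn1 replicates. EDC2 kept its call without each of the 8.

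In starvation all 9 members again rose in xrn1 over wild type, against 98.1% of protein-coding genes that rose and 0.189% that fell. EDC1 rose by 3.64 ± 0.12, DHH1 by 3.17 ± 0.11, DCP2 by 2.82 ± 0.14, DCP1 by 2.16 ± 0.15 and EDC2 by 2.14 ± 0.11, around a protein-coding median of 2.39. EDC2 exceeded 34.7% of genes here and 86.3% in glucose. With the protein-coding scaling (a shift of -2.21 in the all-feature median) 5 members were higher, EDC1, DHH1, DCP2, PAT1 and EDC3, and EDC2 (-0.30) and SCD6 (-0.43) were lower and DCP1 (-0.26) did not pass, against 36.4% and 35.8% of genes.

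**Figure D3:**
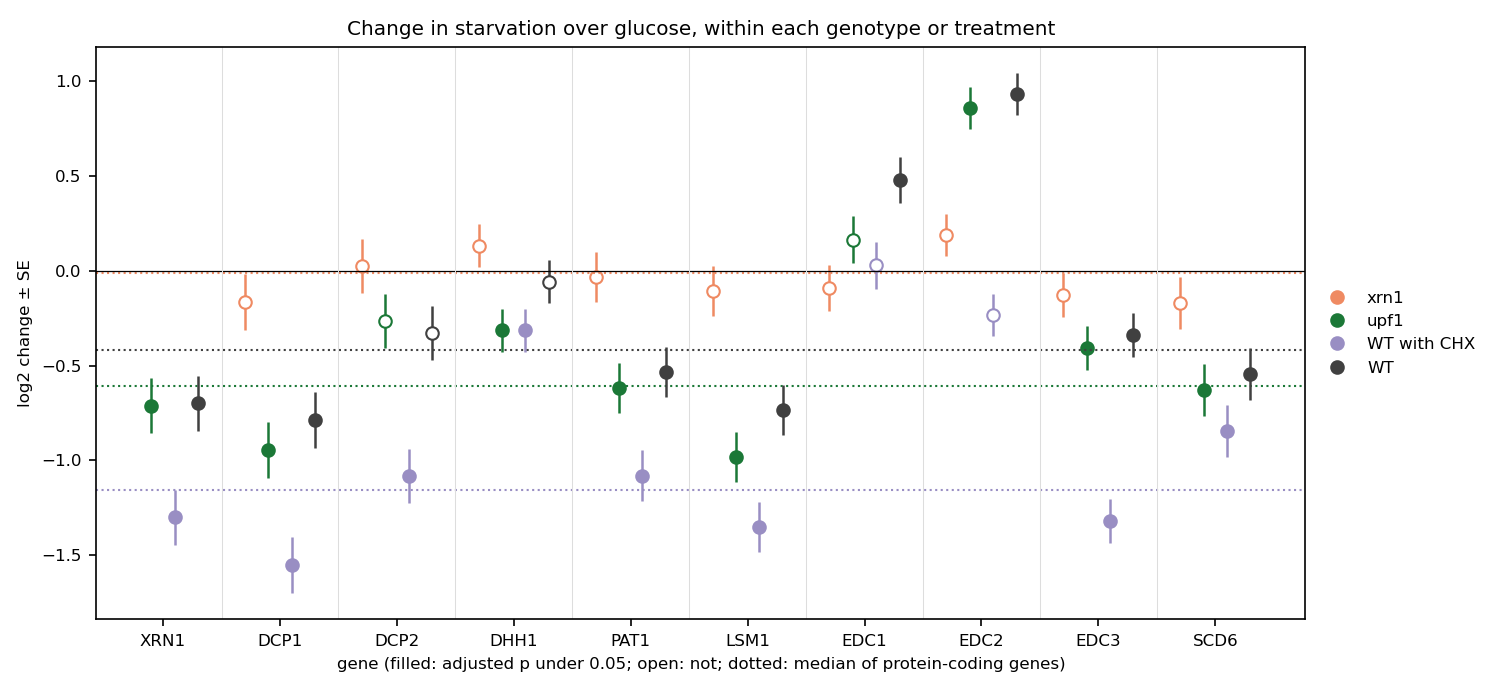
The log2 change (± SE) of each mRNA in starved cells over cells in glucose, within xrn1, upf1, wild type with cycloheximide and wild type (2 libraries per group), with dotted lines at the protein-coding median of each. EDC2 rises in wild type and upf1, the xrn1 points lie between -0.17 and 0.19, and the lowest point is DCP1 with cycloheximide at -1.55; XRN1 is not drawn for xrn1.

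Under cycloheximide, starvation lowered 8 members and raised none, against 80.7% of protein-coding genes that fell and 7.89% that rose. All 4 libraries of this comparison share a header code. DCP1 stood at 0.492 and 0.366 in starved wild type with cycloheximide, against 1.42 and 1.10 with cycloheximide in glucose, a change of -1.55 ± 0.15. LSM1 (-1.35), EDC3 (-1.32), XRN1 (-1.30), DCP2 (-1.08), PAT1 (-1.08), SCD6 (-0.84) and DHH1 (-0.31) also fell, around a protein-coding median of -1.16. EDC1 differed by 0.03 ± 0.12 and EDC2 by -0.23 ± 0.11 (adjusted p 0.0665), and in both the libraries overlapped. EDC2 passed as lower without starved wild type with cycloheximide replicate 1 (-0.33) or wild type with cycloheximide in glucose replicate 2 (-0.38). Scaled to protein-coding genes (a shift of 1.06), EDC1 (1.17), EDC2 (0.91), DHH1 (0.83) and SCD6 (0.29) were higher and DCP1, LSM1 and EDC3 lower, while the signs of DCP2 (0.06) and PAT1 (0.06) turned without a call, against 38.1% and 41.4% of genes. DHH1 lost its call without starved wild type with cycloheximide replicate 1 (-0.23) or wild type with cycloheximide in glucose replicate 1 (-0.21).

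The starvation change under cycloheximide minus that without it was negative and passed the test for 8 members, against 70.7% of protein-coding genes with a negative and 2.56% with a positive difference. EDC2 had the largest, at -1.17 ± 0.16 (adjusted p 4.62e-05), and the median protein-coding gene had -0.80. After scaling to protein-coding genes (a shift of 0.75) EDC2 (-0.39) was the 1 member still lower, and DHH1 (0.52), SCD6 (0.48) and PAT1 (0.24) were higher, against 30.2% and 25.7% of genes. The sign of this difference thus turned for 8 of the 10 members with the scaling. Without single libraries the count of lower members was 4 to 9: PAT1, EDC1 and XRN1 each lost the call without 4 of the 8 libraries, and LSM1 without 2.

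The upf1 deletion went with modest decreases. In glucose PAT1 (-0.52 ± 0.13), XRN1 (-0.42 ± 0.14), EDC1 (-0.37 ± 0.12) and DHH1 (-0.34 ± 0.11) were lower and no member was higher, against 18.4% and 20.7% of protein-coding genes, around a median of -0.08. PAT1 stood at 0.538 and 0.397 in upf1 in glucose, against 0.643 and 0.688 in wild type in glucose, without overlap. The lower member of each of these pairs was replicate 2 of upf1, and without that library none of the 4 passed (PAT1 -0.30, XRN1 -0.19, EDC1 -0.34, DHH1 -0.17). Without either wild-type library 1 of the 4 passed, and EDC1 also lost its call without upf1 replicate 1 (-0.40). LSM1 stood at 0.943 and 0.811 in upf1, against 0.693 and 0.791 in wild type, and its difference of 0.24 ± 0.13 did not pass (95% interval -0.05 to 0.52). Scaled to protein-coding genes, 9 members were lower, all but LSM1, against 45.1% of genes that were lower and 23% that were higher. The median protein-coding change was itself -0.17 on that scale, so a call as lower there does not place a member below the median gene. EDC2, 1 of the 9, had a change above that of 52.4% of protein-coding genes before the scaling.

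In starvation 5 members were lower in upf1 than in wild type, against 29.8% of protein-coding genes that were lower and 10.3% that were higher. They were EDC1 (-0.69 ± 0.12), PAT1 (-0.61 ± 0.13), DHH1 (-0.60 ± 0.11), DCP1 (-0.54 ± 0.15) and XRN1 (-0.43 ± 0.14). EDC1 stood at 0.140 and 0.128 in starved upf1, against 0.236 and 0.200 in starved wild type, and the pairs did not overlap. XRN1 lost its call without any 1 of the 4 libraries (-0.39 to -0.48), and DCP1 without starved wild type replicate 2 (-0.48) or without either starved upf1 replicate (both -0.54). EDC1, PAT1 and DHH1 kept theirs.

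Starvation within upf1 raised EDC2 by 0.86 ± 0.11 and lowered 7 members, DCP1 (-0.95), LSM1 (-0.98), XRN1 (-0.71), SCD6 (-0.63), PAT1 (-0.62), EDC3 (-0.41) and DHH1 (-0.31), against 5.54% of protein-coding genes that rose and 69.2% that fell. Scaled to protein-coding genes (a shift of 0.51), EDC2, EDC1, DCP2 and DHH1 were higher, by 1.44, 0.74, 0.31 and 0.27, DCP1 and LSM1 were lower and EDC3 turned to 0.17 without a call, against 25.1% and 29.3% of genes. DHH1 lost its call without upf1 in glucose replicate 1 (-0.14) or starved upf1 replicate 2 (-0.24), and EDC3 without the same libraries (-0.33 and -0.30). A difference between upf1 and wild type in the starvation change was not detected for any member. Limma called 0 of 10, against 0.0516% of protein-coding genes with a positive and 4.11% with a negative difference. At an unadjusted p under 0.05 it was also 0 of 10, against 2197 of all 11605 features. The estimate for EDC2 was -0.08 (95% interval -0.41 to 0.26).

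Ratios between members within a library do not depend on the scaling, and they are given as descriptions without a test. DCP2 over DCP1 was 1.64 and 1.56 in xrn1 in glucose, 1.59 and 1.62 in wild type with cycloheximide and 1.23 and 1.08 in starved wild type, against 0.861 and 0.815 in wild type in glucose, where the catalytic subunit had the lower mRNA level. The ratio was above 1 in 6 groups, and highest in starved wild type with cycloheximide at 1.99 and 2.50. EDC1 over EDC2 was 0.509 and 0.539 in xrn1 in glucose, 0.314 and 0.317 with cycloheximide and 0.160 and 0.139 in starved wild type, against 0.233 and 0.179 in wild type in glucose. In glucose the xrn1 and cycloheximide libraries thus lay above wild type. Starved libraries lay below those in glucose in wild type, in xrn1 (0.425 and 0.437 in starved xrn1) and in upf1 (a mean of 0.101 in starved upf1, against 0.163 in upf1 in glucose). Under cycloheximide they lay above, at 0.369 and 0.387 in starved cells.

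DHH1 over PAT1 was 2.57 and 2.52 in xrn1 in glucose and 1.22 and 1.25 in wild type with cycloheximide, against 1.45 and 1.38 in wild type in glucose. In glucose the xrn1 strain lay above and the drug below the wild type for this pair, whose proteins both act as repressors of translation. In starvation the ratio was 2.80 and 2.90 in xrn1 and 1.84 and 2.39 with cycloheximide, against 2.00 and 1.95 in wild type, so xrn1 was again above, while the cycloheximide libraries lay on either side. PAT1 over LSM1, partners in 1 complex, was 0.570 and 0.489 in upf1 in glucose, against 0.927 and 0.869 in wild type in glucose, and 0.657 and 0.702 in starved upf1, against 1.12 and 0.953 in starved wild type. In the xrn1 and cycloheximide groups its means were 1.01 to 1.21.

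**Figure D4:**
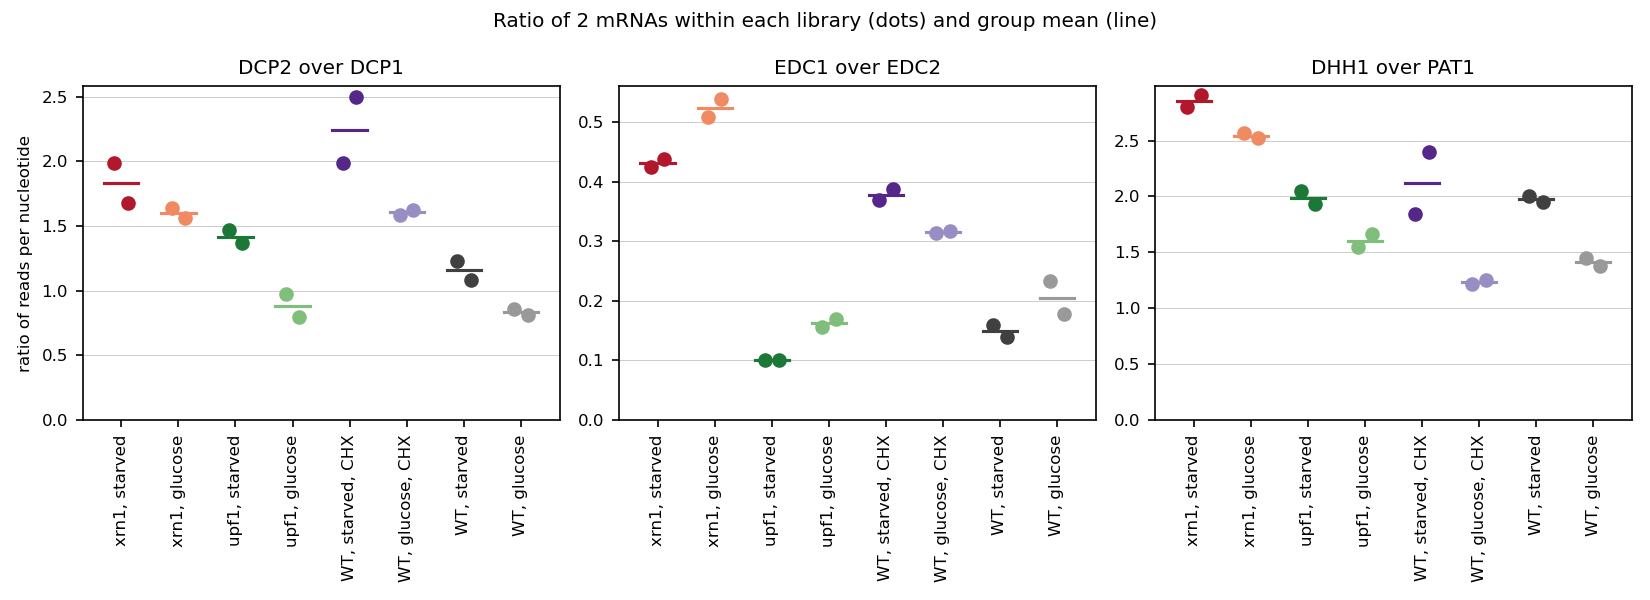
Ratio of the reads per nucleotide of DCP2 to DCP1, EDC1 to EDC2 and DHH1 to PAT1 in each library (dots) of the 8 groups, with a line at the group mean. DCP2 over DCP1 has means of 1.60 in xrn1 and 1.61 in wild type with cycloheximide, against 0.838 in wild type in glucose, and EDC1 over EDC2 is highest in xrn1 in glucose at 0.524.

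Other genes of the pathway gave the setting, from lists whose counts are descriptions. In xrn1 in glucose every listed gene rose: 7 of 7 other Lsm ring subunits (median 1.67), 11 of 11 deadenylase subunits (1.98), 8 of 8 cap-binding and initiation factors (1.16), 5 of 5 cap-scavenging and nuclear 5′-end enzymes (2.25), 5 of 5 decapping regulators (1.43) and both mRNAs known as direct targets of Edc3. Of all protein-coding genes 97.6% rose there, so these counts do not set the lists apart, and the protein-coding median was 2.06. Those targets, YRA1 (3.86) and RPS28B (2.63), are known for Edc3-dependent decay, YRA1 as its pre-mRNA. RPS28B has a near-identical copy, RPS28A, so the split of reads between them is uncertain. LSM8, which replaces LSM1 in the nuclear ring, rose by 2.99, against 1.95 for LSM1 itself. MOT2 (2.97) and PAN3 (2.85) had the largest rises among the deadenylase subunits.

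In starved wild type the listed genes mostly fell: 7 of 8 cap-binding and initiation factors (median -0.97), 8 of 11 deadenylase subunits (-0.61), 5 of 7 Lsm subunits (-0.43), 3 of 5 cap-scavenging and nuclear 5′-end enzymes (-0.61), 4 of 5 regulators (-0.52) and both Edc3 targets (-1.21). Of all protein-coding genes 53% fell and 10.7% rose, with a median of -0.42. Exceptions that rose, named after their values were seen, were NGR1 (0.41), an RNA-binding protein, DCS1 (0.54), which hydrolyses cap fragments, and its paralog DCS2 (2.01). DCS2 was also the only listed gene to rise with starvation in xrn1 (0.94), where EDC2 did not pass (0.19). RPS28B fell by 1.86 in starved wild type, against a member range of -0.79 to 0.93.

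With cycloheximide in glucose every gene of these lists rose as well, against 98.8% of protein-coding genes, with medians of 1.68 for the Lsm subunits, 1.90 for the deadenylase subunits and 1.11 for the cap-binding and initiation factors, below the protein-coding median of 2.05. In starvation the drug lowered 5 of 8 cap-binding and initiation factors (median -0.51), among them TIF1 (-1.41), which encodes the helicase eIF4A and may split reads with its near-identical copy TIF2, and raised 11 of 11 deadenylase subunits (1.42). Of all protein-coding genes 10.2% were lower and 80.3% higher there, with a median of 1.31. XRN1 and DCP1, the members with the smallest rises there (0.75 and 0.81), lay between these lists.

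Each member was set beside the 5513 protein-coding genes with a mean of at least 0.05 reads per nucleotide, by the Pearson correlation of log2 values over 16 libraries (12 without xrn1 for XRN1), after subtracting the protein-coding median of each library. EDC2 was most like RTC3 (r = 0.989), a gene of unclear function, and MPC3 (0.979), a subunit of the mitochondrial pyruvate carrier. EDC1 was most like HYM1 (0.983) and MSN4 (0.979), DHH1 like AVT3 (0.975), and XRN1 like TCB3 (0.983). DCP2 was most like SSL2 (0.967) and DCP1 like LCB1 (0.955), while PAT1 had the least close match, PXL1 (0.933). SCD6 was next most like CCR4 (0.936), a catalytic deadenylase, after SWR1 (0.959), LSM1 was most like NRK1 (0.957) and EDC3 like MAS1 (0.943). These values share libraries and are descriptions. No other feature kept a log2 ratio to a member with an SD under 0.05.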

How the data were processed

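Strand-specific total RNA-seq gave 16 libraries, 2 in each of 8 groups taken from the sample titles. Per the labels' protocols, RNA was extracted with hot phenol, spike-in RNA was added to 1 µg of total RNA, and rRNA-depleted RNA went into a stranded kit. Per the submitters' processing notes, Trim Galore, HISAT2 2.2.0, featureCounts 2.0.0, DESeq2 and build R64 were used, with no roles given. The deposited values are a signal made by the authors, normalized reads per nucleotide of each feature; the scaling is not stated. The 8 deposited mean columns were not used.

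Read units were recovered as value times a whole feature length over a library step; 84.6% of protein-coding genes and all 10 members gave whole numbers within 1e-05 in every library. A unit may be a single mate of a pair, since every DCP1 value was even, but DCP1 was the only such member. What a unit stands for is thus uncertain, so no count test was run and depth is approximate.

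Values were fitted as log2(value + 0.00364), the pseudocount being the 5th percentile of positive values, with limma 3.58.1 in R 4.3.3 (1 mean per group, all 16 libraries, eBayes with trend, 8 residual and 4.43 prior degrees of freedom). Features with a mean at or above the pseudocount were tested: 11605, among them 5817 protein-coding genes and all 10 members. Changes with a Benjamini-Hochberg adjusted p under 0.05 were called, over all features in each of 13 comparisons, 3 of them interactions. Log2 changes are given ± SE, and they understate the change of low genes. The test was checked on simulated data. Alternatives were other pseudocounts, filters, scalings (protein-coding genes, snoRNAs, spike-ins), a replicate block, a 2-fold minimum, fits to the compared groups alone, and leaving out each library. The labels do not say that replicate numbers mark a shared batch.

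The members and lists were chosen with earlier results of these data known. Named related genes were up to 3 per list with the largest changes among those called without overlap. Likeness named the 2 closest genes.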

Additional observations from a re-analysis of the deposited data

Results flagged for a closer look

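For 8 members the starvation change with cycloheximide differed from that without it by the test of the difference (limma). On the log2 scale the difference, starved over glucose with the drug minus starved over glucose without it, was -1.17 for EDC2, -0.98 for EDC3, -0.77 for DCP1, -0.75 for DCP2, -0.61 for LSM1, -0.60 for XRN1, -0.55 for PAT1 and -0.45 for EDC1. The median protein-coding gene had -0.80 and 70.7% of protein-coding genes were called in this direction, so most of these values lie near those of other genes. EDC2 and EDC3 were the members with a difference below that median.

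For 4 members the starvation change in xrn1 differed from that in wild type. The difference was -0.74 for EDC2 and -0.57 for EDC1, against 0.62 for DCP1 and 0.63 for LSM1, with a protein-coding median of 0.40. Of protein-coding genes 35.5% were called with a positive difference and 4.06% with a negative one. EDC2 kept its call whichever single library was left out, and DCP1, LSM1 and EDC1 did not. Groups of 2 libraries are too small to look for single outlying samples.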

How the results depend on the processing

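Values are counts of the 10 members that passed (9 with xrn1) or log2 changes. A 10 times smaller pseudocount changed no member's direction or call in any comparison. The spike-in scaling changed none either, but its factor was 1.00466 in every library. The values were thus already level by the spike-ins, and that setting could not test the calls. All 10 members stayed higher with cycloheximide, and all 9 in xrn1, in both media under every setting tried but the protein-coding scaling and the 2-fold minimum, which DCP1, LSM1 and XRN1 missed for cycloheximide in starvation.

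With the libraries on the scale of protein-coding genes, counts became 4 higher and 6 lower for cycloheximide in glucose, 5 and 3 for cycloheximide in starvation, 4 and 3 for starvation under cycloheximide, 5 and 2 for xrn1 in glucose, 5 and 2 for xrn1 in starvation, 4 and 2 for starvation in upf1, and 9 lower for upf1 in glucose. They became 3 higher and 1 lower for the cycloheximide interaction and 0 higher for the xrn1 interaction. The sign turned for cycloheximide in glucose in DCP1 (-0.443), DHH1 (-0.476), PAT1 (-0.279), LSM1 (-0.443), SCD6 (-0.249) and XRN1 (-0.68), and in starvation in DCP1 (-0.426), PAT1 (-0.043), LSM1 (-0.277) and XRN1 (-0.501). In xrn1 it turned in glucose in DCP1 (-0.517), LSM1 (-0.115) and SCD6 (-0.436), and in starvation in DCP1 (-0.256), EDC2 (-0.299) and SCD6 (-0.429). Starvation changes turned in wild type in DHH1 (0.304) and EDC3 (0.016), in upf1 in DCP2 (0.311), DHH1 (0.268) and EDC3 (0.170), and under cycloheximide in DCP2 (0.055), DHH1 (0.827), PAT1 (0.060), EDC2 (0.907) and SCD6 (0.294). The cycloheximide interaction turned in DCP1 (0.017), DCP2 (0.027), DHH1 (0.522), PAT1 (0.235), EDC1 (0.325), LSM1 (0.166), SCD6 (0.481) and XRN1 (0.179). This scaling removes by construction a shift common to the protein-coding genes of a library, but it did not centre every comparison. On this scale the median protein-coding change ran from -0.17 for upf1 in glucose to 0.10 for cycloheximide in starvation. Small values and turned signs are therefore not strictly relative to the median gene.

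Scaled to snoRNAs, 0 members were lower in starved wild type (EDC3 turned, to 0.054), 0 in upf1 in glucose and 9 in starved upf1. Of 5817 protein-coding genes, 450, 95 and 3404 were lower there, in the same order. The interactions gave 4 lower members with cycloheximide, and 0 higher and 1 lower with xrn1. Among the protein-coding genes 3301 were lower with cycloheximide, and 14 were higher and 163 lower with xrn1. A 2-fold minimum left 0 higher and 0 lower for starvation in wild type and in upf1, 0 lower for upf1 in either medium, 1 lower for the cycloheximide interaction, and 0 higher and 0 lower for the xrn1 interaction. A fit to the compared groups alone gave 1 lower for upf1 in glucose and 4 higher for the xrn1 interaction. That interaction had 1 higher with a 10 times larger pseudocount and 1 with no filter. The cause of these moves was not tested.

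Without single libraries the counts ranged from 1 to 2 higher and 4 to 5 lower for starvation in wild type, 0 to 4 lower for upf1 in glucose, 3 to 4 lower for upf1 in starvation, 4 to 9 lower for the cycloheximide interaction, and 0 to 1 higher and 1 to 2 lower for the xrn1 interaction.

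The labels do not pair replicates with the same number. Their deviations correlated by over 0.1 in 1 of 22 pairs of groups that include wild type, and in 5 of 6 pairs among the upf1 and xrn1 groups (0.06 to 0.23), a hint of pairing there from the data alone. With the replicate number as a block, 7 members were lower for upf1 in glucose, with DCP1, DCP2 and SCD6 added. The log2 changes were the same under the block and every member's SE was smaller, for DCP2 0.110, against 0.141 without it. DCP2 also passed for starvation in wild type (adjusted p 0.0279), EDC2 for starvation under cycloheximide (0.0222), SCD6 for upf1 in starvation (0.0123) and PAT1 for the xrn1 interaction (0.0244). No call was lost under the block.

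The number of all features called moved by over 1.5 times in several comparisons. For starvation in wild type it was 5047 and became 1430 with the 2-fold minimum and 1942 scaled to snoRNAs, and for starvation in xrn1 it was 352 and ranged from 122 to 1049. On the protein-coding scale it was 6595, against 10684, for cycloheximide in glucose and 6926, against 10832, for xrn1 in starvation. The smallest numbers of read units in a library were 211 for EDC1 and 252 for DCP1.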
